A study of Homo sapiens with 10 samples.

Results

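The block is a run of neighbouring genes, 7.17 Mb long, at the end of the short arm of chromosome 12, whose RNA was mostly lower in a p53 knockout line than in its control line. Its members were the entries located on chromosome 12 within 87984 to 7261869, with starts counted from 1 and a genome build not given in the sources used here, that had a mean FPKM of at least 5 over the 10 libraries. FPKM, the deposited unit, is the number of fragments scaled to transcript length and to the mapped fragments of the library. GAPDH, TPI1, ENO2, C12orf5, FOXM1, CCND2, RAD51AP1 and symbols starting with NDUF were left out by name. Of 25593 entries in the files, 116 lay in the interval, 56 were under the minimum, 8 were left out by name and the other 52 were the members. All 52 passed the filter on low values. The interval was chosen from the difference between the lines, so that difference is given as a description and carries no test. The responses to siRNA were tested, in libraries that the choice also used.

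Both lines came from the osteosarcoma line U2OS, which has a rearranged karyotype, by CRISPR/Cas9 transfection, selection and picking of clones. The KO line, labelled CRISPR p53-KO and p53 KO, received SET siRNA (n = 2) or control siRNA (n = 2), and the WT line, labelled CRISPR Ctr and p53 WT, received SET siRNA (n = 3) or control siRNA (n = 3), each for 96 h. SET is an acidic histone chaperone that binds p53, and the series set out to find genes controlled by both proteins together. A line difference sets 1 derived line against 1 other, and the design text names SET as the CRISPR target while describing a p53 knockout, so groups were taken from the sample labels. How the replicate cultures were kept apart is not stated, so the p-values measure only the spread between these libraries, which may be technical.

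Read depth is not recorded in the deposited tables; between 13804 and 14153 entries per library reached an FPKM of 1. SET had 14.9 and 14.9 FPKM after SET siRNA in the KO line, against 158 and 169.7 FPKM after control siRNA, and 12.3, 13.3 and 12.01 FPKM after SET siRNA in the WT line, against 121, 125 and 126 FPKM after control siRNA. CDKN1A, a p53 target that encodes a cyclin-dependent kinase inhibitor, had 6.84 and 6.51 FPKM in the KO line with control siRNA, against 163, 169.8 and 153 FPKM in the WT line. Both genes went the way of the labels; an edit at the DNA level was not examined. Of 8 mesenchymal markers 7 had a mean FPKM of at least 1. The summed FPKM of the 8 was 1644 to 1808 in KO SET libraries, against 1429.8 to 1583 in WT SET libraries. It was 2137 to 2279.7 in KO control libraries, against 2109 to 2188 in WT control libraries, so it was lower after SET siRNA in both lines. VIM, with a mean of 1209 FPKM, had the largest part in it. Single markers went both ways between the lines. With control siRNA the log2 difference, KO minus WT, was 0.72 for RUNX2, 0.34 for CDH11 and 0.19 for VIM. It was -0.02 for COL1A1, -0.24 for SPARC, -0.41 for ALPL and -0.46 for FN1. What these markers add to the results was not tested. Of 4 epithelial markers 1 had a mean FPKM of at least 1, and their sum was 5.15 to 5.42 FPKM in KO SET libraries, against 4.85 to 6.70 in WT SET libraries, and 2.30 to 2.61 in KO control libraries, against 2.81 to 2.93 in WT control libraries. This sum was higher after SET siRNA in both lines, and its part in the siRNA responses was not tested. The 4 endothelial markers summed to at most 0.601 FPKM and 5 blood markers to at most 0.439, with HBB at 0 in all libraries. In bulk RNA, fewer cells that make a transcript and less of it per cell cannot be told apart.

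The genes at this chromosome end share their position and not a pathway. The stretch holds the nucleosome remodeller gene CHD4, the histone demethylase gene KDM5A, the condensin subunit gene NCAPD2, the DNA repair gene RAD52, the receptor genes TNFRSF1A and LTBR, and genes for ribosome assembly and protein turnover. Neighbouring genes can share a promoter region or overlap one another, and reads in an overlap cannot be assigned without strand.

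Most members were lower in the KO line under both siRNAs. With SET siRNA the median log2 difference, KO minus WT on the log2(FPKM + 1) scale, was -0.52 over the members, against -0.00 over all 14813 genes tested, and 49 of 52 members were below 0. That scale understates the change of low genes. The ratio of mean FPKM, KO over WT, had a median of 0.682 and lay between 0.5 and 0.8 for 32 members. With control siRNA the median log2 difference was -0.57, against 0.02 over all genes tested, and 50 of 52 members were below 0. The median ratio was then 0.660, and it lay between 0.5 and 0.8 for 41 members, under 0.5 for 6 and over 1 for 2. Every KO SET library lay below every WT SET library for 42 members, as it did for 35.4% of all genes tested; with control siRNA this held for 47 members (90.4%), against 28.8% of all genes tested. Every KO library lay above every WT library for CCDC77 and CDCA3 with SET siRNA, as for 34.7% of all genes tested, and for no member with control siRNA, where it did for 34.3%. The limma fit across all genes called 40 members with SET siRNA, where 48.4% of all genes tested were called, 39 of them lower, where 24.8% were, and 1 higher, where 23.6% were. With control siRNA it called 47, where 47.9% of all genes tested were called, all 47 of them lower, where 22.2% were, and 0 higher, where 25.7% were. These counts use the contrast that chose the interval, so nothing is read from them.

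By library, the median of the members relative to the mean of the WT control libraries was -0.62 and -0.59 in the KO SET libraries, against -0.10, -0.07 and -0.10 in the WT SET libraries. It was -0.55 and -0.62 in the KO control libraries, against 0.02, -0.00 and -0.00 in the WT control libraries. The lines separated in all 10 libraries, and the siRNAs moved these medians far less than the line did.

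**Figure D1:**
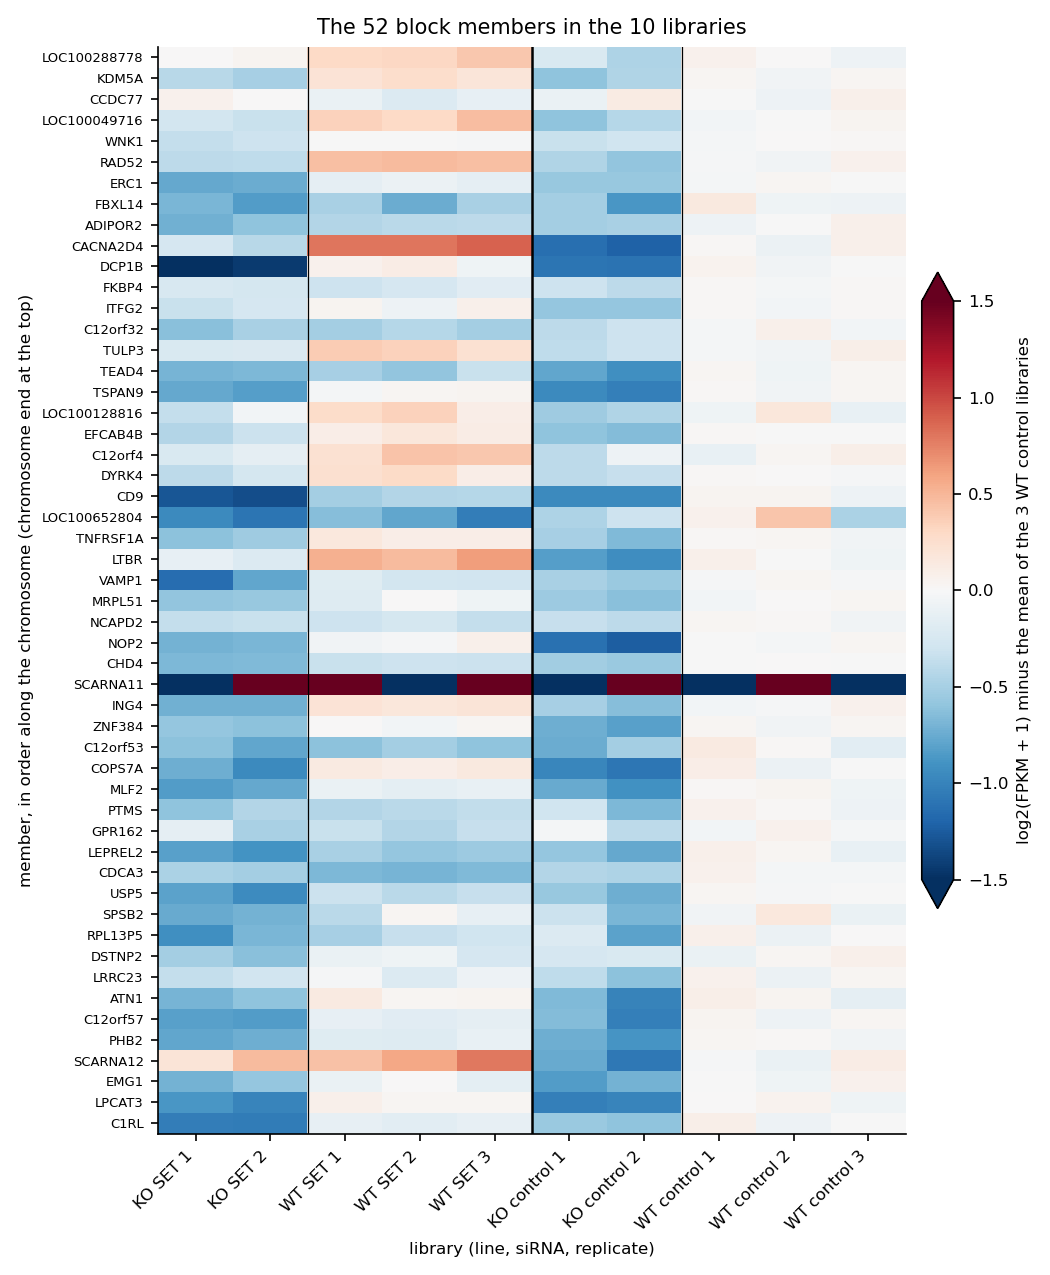
Each row is a block member, in order from the chromosome end at the top, and each column a library, with SET siRNA left of control siRNA and KO left of WT in each. Colour gives log2(FPKM + 1) minus the mean of the 3 WT control libraries; blue rows run through the KO columns for most members, and SCARNA11 changes from library to library.

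Along the block the difference was below 0 in each stretch; the files hold RNA values, and DNA was not measured. Members starting in the first 2 Mb had a median of -0.48 with SET siRNA and -0.52 with control siRNA (n = 10). Those between 2 and 4 Mb had -0.44 with SET siRNA and -0.58 with control siRNA (n = 9), and those from 6 Mb to the end -0.56 with SET siRNA and -0.58 with control siRNA (n = 31). Only C12orf4 and DYRK4 started between 4 and 6 Mb, with a median of -0.53 with SET siRNA and -0.30 with control siRNA (n = 2). Stretches of 0.790 Mb (DCP1B to FKBP4), 0.735 Mb (EFCAB4B to C12orf4) and 1.59 Mb (DYRK4 to CD9) held no member. Beyond the block, entries of the same minimum FPKM had medians with SET siRNA of 0.06 up to 10 Mb (n = 14), -0.00 from 10 to 20 Mb (n = 31), 0.08 from 20 to 35 Mb (n = 40) and 0.01 farther on (n = 439). With control siRNA these medians were 0.01, 0.07, 0.20 and 0.02. On the rest of the chromosome 57 of 524 entries had a control siRNA ratio between 0.5 and 0.8.

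Lower values were also found past the end of the interval and under the minimum FPKM. The first members, LOC100288778 and KDM5A, had log2 differences of -0.35 and -0.53 with control siRNA, and the last, LPCAT3 and C1RL, -1.01 and -0.58. The next entries outward, CLSTN3 and PEX5, had -1.37 and -0.38 with SET siRNA and -1.06 and -0.59 with control siRNA, so the lower level went past the stated end. After them came SLC2A3 at -0.20 and FOXJ2 at 0.01 with control siRNA. At the limit on level, VAMP1 and ITFG2 were the lowest inside, with mean FPKM of 5.90 and 6.37, and C1R and LOC100507424 the highest outside, with 4.90 and 3.998 and control siRNA differences of -0.93 and -0.24. The 23 entries of the interval that were under the minimum and passed the filter had a median of -0.42 with SET siRNA and -0.49 with control siRNA.

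**Figure D2:**
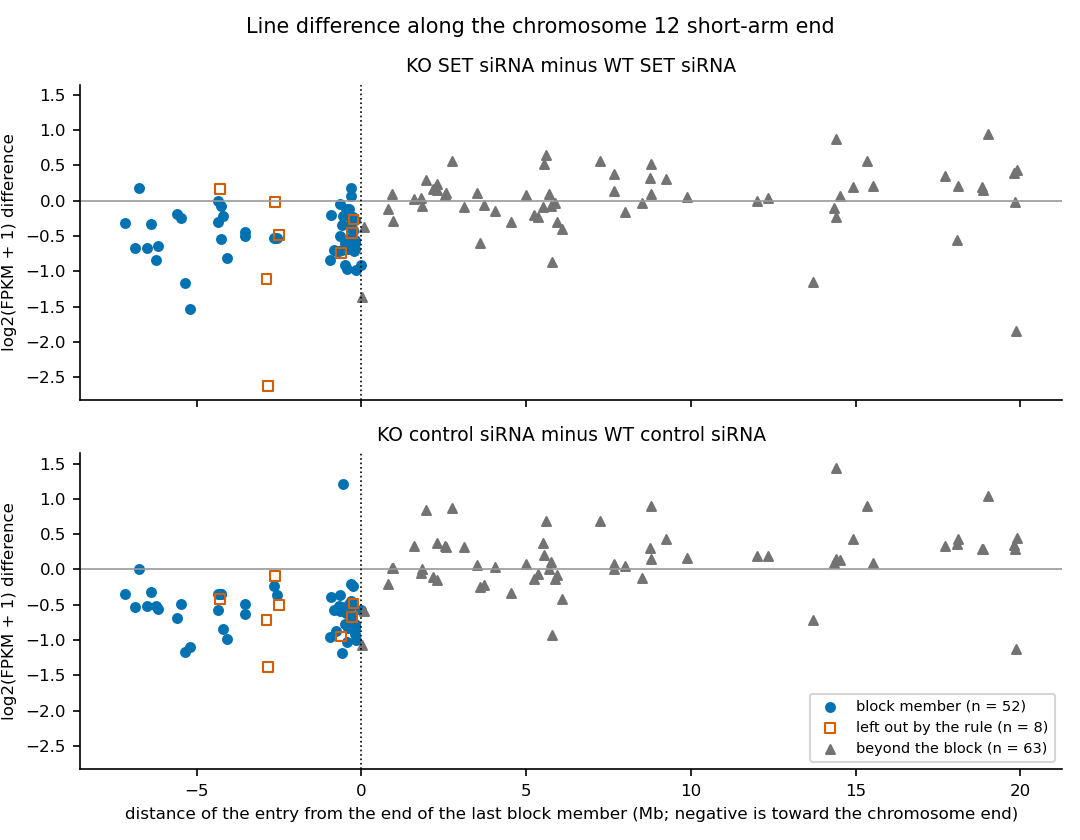
Each point is an entry with a mean FPKM of at least 5, placed by its distance in Mb from the end of the last member, with the chromosome end to the left; the vertical axis is the KO minus WT difference in log2(FPKM + 1). Most members lie below 0 in both panels, 2 entries just past the end are also low, and points farther out scatter about 0.

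The genes left out by name sit among the members. GAPDH had log2 differences of -0.74 with SET siRNA and -0.95 with control siRNA, TPI1 -0.45 with SET siRNA and -0.67 with control siRNA, ENO2 -0.27 with SET siRNA and -0.48 with control siRNA, NDUFA9 -0.49 with SET siRNA and -0.51 with control siRNA, CCND2 -1.11 with SET siRNA and -0.71 with control siRNA, and C12orf5, a p53 target, -2.63 with SET siRNA and -1.38 with control siRNA. FOXM1, a mitotic transcription factor gene, had 0.17 with SET siRNA and -0.42 with control siRNA, and RAD51AP1, a recombination gene, -0.02 with SET siRNA and -0.09 with control siRNA.

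Among 8 chromatin and transcription members all were lower in the KO line under both siRNAs, with differences of -0.91 to -0.21 with SET siRNA and -0.85 to -0.34 with control siRNA. CHD4 is the ATPase of the NuRD complex, which couples nucleosome remodelling to histone deacetylation. Under SET siRNA, CHD4 had 108 and 109 FPKM in the KO line, against 136, 139 and 138 FPKM in the WT line. Under control siRNA, CHD4 had 120.5 and 117 FPKM in the KO line, against 172, 174 and 173 FPKM in the WT line. The lines did not overlap under either siRNA, and CHD4 had the highest mean FPKM of the 8 after MLF2. KDM5A removes methyl groups from lysine 4 of histone H3, and ING4 is a subunit of the HBO1 acetyltransferase complex. Under SET siRNA, KDM5A had 7.52 and 7.06 FPKM in the KO line, against 12.2, 12.7 and 11.9 FPKM in the WT line. Under control siRNA, KDM5A had 6.502 and 7.31 FPKM in the KO line, against 10.6, 9.95 and 10.6 FPKM in the WT line. The WT libraries stood above the KO libraries throughout. TEAD4 is the DNA-binding partner of YAP1 at the end of the Hippo pathway. Under SET siRNA, TEAD4 had 36.9 and 37.2 FPKM in the KO line, against 42.4, 39.6 and 47.5 FPKM in the WT line. Under control siRNA, TEAD4 had 34.6 and 31.3 FPKM in the KO line, against 61.4, 57.5 and 61.6 FPKM in the WT line. The gap between the lines was -0.21 with SET siRNA and -0.85 with control siRNA. The zinc finger gene ZNF384 had differences of -0.60 with SET siRNA and -0.77 with control siRNA, the corepressor gene ATN1 -0.72 with SET siRNA and -0.83 with control siRNA, MLF2 -0.68 with SET siRNA and -0.83 with control siRNA, ING4 -0.91 with SET siRNA and -0.57 with control siRNA, and TULP3, which carries receptors into cilia, -0.55 with SET siRNA and -0.34 with control siRNA.

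The response of these genes to SET siRNA differed by gene. In the KO line 1 of the 8 rose and 1 fell, where 19.8% of all genes tested were called higher and 17.9% lower, and in the WT line 3 rose and 2 fell, where 30.8% were called higher and 24.0% lower. These shares are near the background. TEAD4 had 0.16 ± 0.083 (SE; adjusted p = 0.147) in the KO line and fell in the WT line, -0.47 ± 0.067 (SE; adjusted p = 0.000330). The response in the WT line minus that in the KO line was -0.64 ± 0.11 (SE; adjusted p = 0.00522), and this call held under each of the 10 single-library omissions, with adjusted p of 0.00275 to 0.0264. CHD4 fell in the KO line, -0.13 ± 0.039 (SE; adjusted p = 0.0240), and in the WT line, -0.32 ± 0.032 (SE; adjusted p = 3.52e-05); the KO call was lost without KO control replicate 1 or either KO SET replicate, at adjusted p up to 0.12. The rises in the WT line were those of KDM5A at 0.22, TULP3 at 0.32 and ING4 at 0.19, and the rise in the KO line that of ZNF384 at 0.18, lost in 3 of 4 omissions. The WT response minus the KO response was also called for CHD4, -0.19 ± 0.050 (SE; adjusted p = 0.0291), and lost in 8 of 10 omissions, and for ING4, 0.34 ± 0.082 (SE; adjusted p = 0.0205), and lost in 3 of 10.

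The other genes of these complexes lie elsewhere in the genome. Of 11 NuRD genes, 8 were called higher and 1 lower in the KO line with SET siRNA, where 23.6% of all genes tested were called higher, and 6 higher and 1 lower with control siRNA, where 25.7% were called higher. HDAC2, a deacetylase of the complex, had 0.46 with SET siRNA and 0.36 with control siRNA, MBD3 0.51 with SET siRNA and -0.03 with control siRNA, and MTA2 -0.27 with SET siRNA and -0.19 with control siRNA. Of 8 Hippo pathway partners of TEAD4, 2 were called higher and 3 lower with SET siRNA, where 23.6% and 24.8% of all genes tested were, and 3 higher and 1 lower with control siRNA, where 25.7% and 22.2% were; TEAD2 had 0.50 with SET siRNA and 0.49 with control siRNA and YAP1 -0.26 with SET siRNA and 0.01 with control siRNA.

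A set of 4 members acts in chromosome maintenance and DNA repair, and 3 of the 4 had a smaller or reversed line difference with SET siRNA. NCAPD2 is a subunit of condensin I, which compacts chromosomes for mitosis, and CDCA3 is a mitotic protein that takes part in the turnover of mitotic inhibitors. RAD52 anneals single-stranded DNA in homologous recombination, and C12orf32, also called RHNO1, takes part in the ATR checkpoint. Under SET siRNA, NCAPD2 had 80.6 and 81.6 FPKM in the KO line, against 83.5, 86.2 and 80.6 FPKM in the WT line. Under control siRNA, NCAPD2 had 81.5 and 78.9 FPKM in the KO line, against 106, 105 and 100.1 FPKM in the WT line. The lines were apart with control siRNA and overlapped with SET siRNA. Under SET siRNA, CDCA3 had 37.0 and 36.0 FPKM in the KO line, against 32.02, 31.5 and 32.4 FPKM in the WT line. Under control siRNA, CDCA3 had 38.0 and 37.3 FPKM in the KO line, against 54.3, 50.6 and 50.7 FPKM in the WT line. Here the order of the lines turned round, with differences of 0.19 with SET siRNA and -0.45 with control siRNA, and CDCA3 was 1 of 2 members, beside CCDC77, whose KO libraries all lay above the WT libraries with SET siRNA. Under SET siRNA, RAD52 had 4.86 and 4.93 FPKM in the KO line, against 9.51, 9.68 and 9.56 FPKM in the WT line. Under control siRNA, RAD52 had 4.66 and 4.10 FPKM in the KO line, against 6.64, 6.42 and 7.08 FPKM in the WT line. For RAD52 the gap was larger with SET siRNA, -0.84, than with control siRNA, -0.52.

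In the KO line SET siRNA left NCAPD2 at 0.02 ± 0.049 (SE; adjusted p = 0.807) and CDCA3 at -0.05 ± 0.049 (SE; adjusted p = 0.498), while in the WT line both fell, with -0.31 ± 0.040 (SE; adjusted p = 0.000180) for NCAPD2 and -0.68 ± 0.040 (SE; adjusted p = 1.91e-06) for CDCA3. The WT response minus the KO response was -0.64 ± 0.063 (SE; adjusted p = 0.000489) for CDCA3 and -0.33 ± 0.063 (SE; adjusted p = 0.00953) for NCAPD2, by limma with Benjamini-Hochberg adjustment over all genes, and both calls held under each single-library omission. RAD52 had 0.13 ± 0.069 (SE; adjusted p = 0.157) in the KO line and rose in the WT line, 0.46 ± 0.057 (SE; adjusted p = 0.000142); the difference of the responses, 0.32 ± 0.089 (SE; adjusted p = 0.0352), was lost in 8 of 10 omissions (highest adjusted p = 0.115). C12orf32 fell in the KO line, -0.20 ± 0.065 (SE; adjusted p = 0.0363), and in the WT line, -0.48 ± 0.053 (SE; adjusted p = 7.52e-05), the KO call being lost without KO control replicate 2 or KO SET replicate 1 (highest adjusted p = 0.236).

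**Figure D3:**
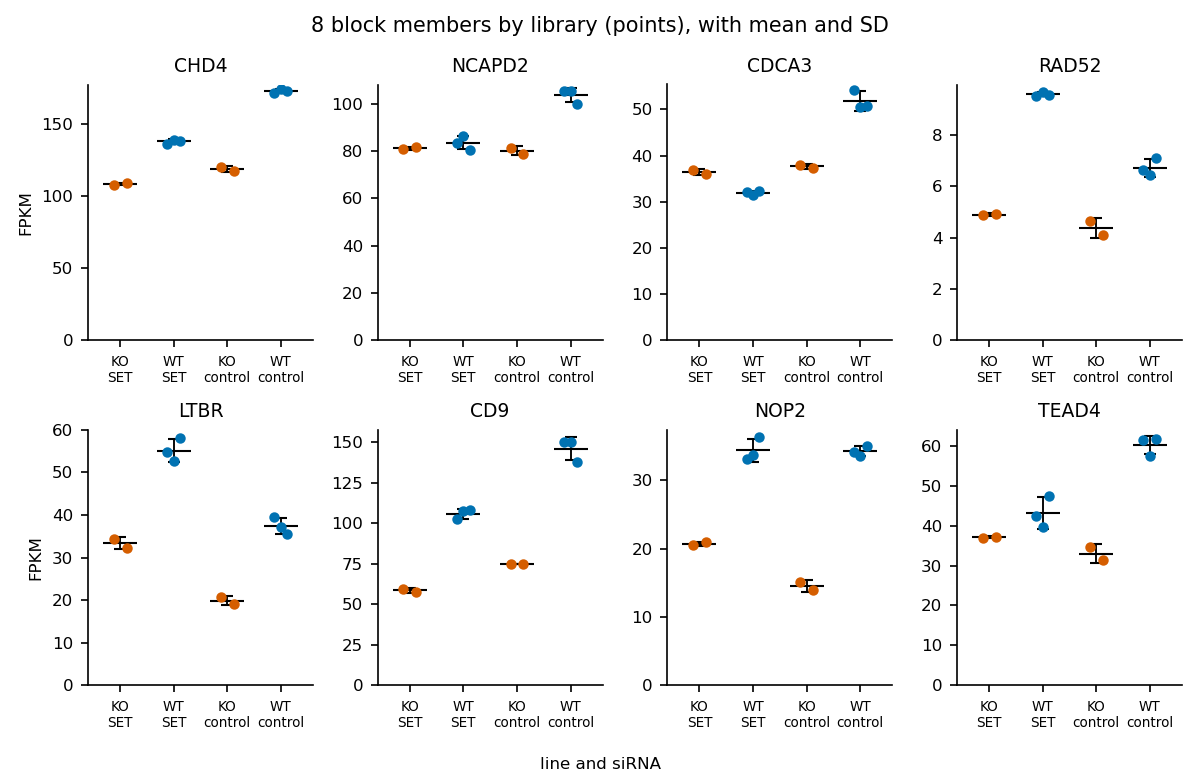
FPKM of 8 members, with SET siRNA groups left of control siRNA groups and KO left of WT in each, points for libraries and bars for mean and SD (KO n = 2, WT n = 3). NCAPD2 and CDCA3 separate by line with control siRNA and not in that order with SET siRNA; CHD4, CD9 and NOP2 are lower in the KO line under both.

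NCAPD2 and CDCA3 each start close to a gene on the other strand that is also a member. The starts of MRPL51 and NCAPD2 are 840 bases apart and those of CDCA3 and USP5 864 bases apart in RefSeq on GRCh38.p14. For the mates the difference of the responses was not called: MRPL51, a protein of the mitochondrial ribosome, had a WT response minus KO response of -0.09 ± 0.084 (SE; adjusted p = 0.488), and USP5, which disassembles unanchored ubiquitin chains, -0.14 ± 0.085 (SE; adjusted p = 0.250). The 250 bases before each start are printed to show how the facing promoters of a pair differ, 5′ to 3′ on the gene's strand, in the order MRPL51 (chr12:6493263-6493512, minus strand), NCAPD2 (chr12:6493852-6494101, plus strand), CDCA3 (chr12:6851287-6851536, minus strand) and USP5 (chr12:6851900-6852149, plus strand). Capitals mark 3 motifs on either strand: CCAAT, bound by NF-Y, then TTTGAA, the core of an element found in promoters of mitotic genes, and GGGCGG, a GC box.
MRPL51: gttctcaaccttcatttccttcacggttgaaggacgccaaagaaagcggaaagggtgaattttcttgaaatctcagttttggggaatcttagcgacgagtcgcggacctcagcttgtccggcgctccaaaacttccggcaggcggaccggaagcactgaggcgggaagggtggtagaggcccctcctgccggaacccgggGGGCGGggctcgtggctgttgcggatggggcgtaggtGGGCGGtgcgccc
NCAPD2: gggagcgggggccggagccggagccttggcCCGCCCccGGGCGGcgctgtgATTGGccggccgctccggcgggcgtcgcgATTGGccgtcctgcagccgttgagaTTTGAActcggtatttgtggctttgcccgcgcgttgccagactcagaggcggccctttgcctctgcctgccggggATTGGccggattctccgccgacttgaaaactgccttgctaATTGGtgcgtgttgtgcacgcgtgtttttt
CDCA3: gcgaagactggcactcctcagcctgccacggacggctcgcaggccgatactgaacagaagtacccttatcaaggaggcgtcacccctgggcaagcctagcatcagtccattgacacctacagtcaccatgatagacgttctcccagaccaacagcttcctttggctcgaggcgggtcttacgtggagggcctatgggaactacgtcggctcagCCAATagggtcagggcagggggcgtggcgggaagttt
USP5: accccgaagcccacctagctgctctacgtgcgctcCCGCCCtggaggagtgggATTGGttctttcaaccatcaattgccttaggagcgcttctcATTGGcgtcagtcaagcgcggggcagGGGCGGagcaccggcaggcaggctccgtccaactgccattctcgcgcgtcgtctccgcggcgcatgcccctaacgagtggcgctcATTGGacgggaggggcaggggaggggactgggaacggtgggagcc
The NCAPD2 window held 4 CCAAT matches, all on the other strand (ATTGG), 1 match to TTTGAA and 2 to GGGCGG, while the MRPL51 window held no CCAAT or TTTGAA and 2 GGGCGG matches. The CDCA3 window held 1 CCAAT match and no TTTGAA, and the USP5 window 3 CCAAT and 2 GGGCGG matches. Of the 52 members, 35 matched a RefSeq window by symbol; CCAAT was in 40.0% of these, against 33.0% of 27305 windows of the same length, TTTGAA in 11.4%, against 13.6%, GGGCGG in 60.0%, against 42.3%, and TATAAA in 2.86%, against 11.1%. The members had to reach a mean FPKM of at least 5, while the 27305 windows cover genes of any level. The shares therefore compare unlike genes, and nothing about the block is read from them. A match is a run of letters and not a bound site.

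Condensin genes outside the block went the other way between the lines. The 7 others listed cover both condensin complexes: NCAPD3, NCAPG2 and NCAPH2 belong to condensin II, which does not contain NCAPD2. With SET siRNA 7 of 7 were called higher in the KO line, at differences of 0.47 to 0.87. Of all genes tested 23.6% were called higher there. With control siRNA 6 were called higher and 0 lower, where 25.7% of all genes tested were called higher. SMC4 had 0.87 with SET siRNA and 0.66 with control siRNA, NCAPG 0.85 with SET siRNA and 0.42 with control siRNA, NCAPH 0.82 with SET siRNA and 0.15 with control siRNA, and SMC2 0.51 with SET siRNA and 0.43 with control siRNA, beside -0.04 with SET siRNA and -0.37 with control siRNA for NCAPD2. In the WT line SET siRNA lowered 6 of the 7 by the test, NCAPH with -0.68 ± 0.039 (SE; adjusted p = 1.60e-06), as it did NCAPD2, where 24.0% of all genes tested were called lower. The WT response minus the KO response was negative by the test for 5, where 8.60% of all genes tested were called negative. Of 12 homologous recombination genes, 8 were called higher and 1 lower with SET siRNA, where 23.6% and 24.8% of all genes tested were, and 2 higher and 2 lower with control siRNA, near the 25.7% and 22.2% of all genes tested; RAD54L had 0.69 with SET siRNA and 0.01 with control siRNA and RAD51C, lower under both, -0.83 with SET siRNA and -0.40 with control siRNA.

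A group of 8 members encodes receptors, channels or membrane signalling proteins, all of them below 0 in the KO line with control siRNA, at -1.17 to -0.21. TNFRSF1A and LTBR are the receptors for tumour necrosis factor and for lymphotoxin, which signal to NF-kappaB. Under SET siRNA, TNFRSF1A had 42.1 and 44.4 FPKM in the KO line, against 72.4, 69.7 and 70.0 FPKM in the WT line. Under control siRNA, TNFRSF1A had 45.7 and 40.8 FPKM in the KO line, against 65.9, 66.6 and 62.5 FPKM in the WT line. The lines were apart. Under SET siRNA, LTBR had 34.4 and 32.3 FPKM in the KO line, against 54.7, 52.6 and 58.1 FPKM in the WT line. Under control siRNA, LTBR had 20.7 and 19.1 FPKM in the KO line, against 39.5, 37.2 and 35.7 FPKM in the WT line. The lines were apart here too. LTBR rose with SET siRNA in each line, 0.72 ± 0.069 (SE; adjusted p = 8.92e-05) in the KO line and 0.55 ± 0.056 (SE; adjusted p = 5.05e-05) in the WT line, and the KO libraries after SET siRNA stayed below the WT libraries after control siRNA. TNFRSF1A had 0.00 ± 0.062 (SE; adjusted p = 0.995) in the KO line and 0.12 ± 0.050 (SE; adjusted p = 0.0704) in the WT line, neither of them called. CD9 is a tetraspanin that organises adhesion and fusion proteins in the membrane. Under SET siRNA, CD9 had 59.5 and 57.7 FPKM in the KO line, against 103, 108 and 108 FPKM in the WT line. Under control siRNA, CD9 had 74.9 and 74.8 FPKM in the KO line, against 150.5, 150.1 and 138 FPKM in the WT line. It fell with SET siRNA in both lines, -0.35 ± 0.054 (SE; adjusted p = 0.00112) in the KO line and -0.46 ± 0.044 (SE; adjusted p = 3.06e-05) in the WT line, and the lines stayed apart. Its locus overlaps that of LOC100652804 by 384 bases, and without strand the reads there cannot be told apart.

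CACNA2D4, an auxiliary subunit of voltage-gated calcium channels, had the most negative difference of this group. Under SET siRNA, CACNA2D4 had 6.94 and 6.09 FPKM in the KO line, against 15.5, 15.5 and 16.4 FPKM in the WT line. Under control siRNA, CACNA2D4 had 3.32 and 3.08 FPKM in the KO line, against 8.57, 7.84 and 8.91 FPKM in the WT line. It rose with SET siRNA by nearly the same step in both lines, 0.84 ± 0.079 (SE; adjusted p = 7.82e-05) in the KO line and 0.83 ± 0.065 (SE; adjusted p = 9.34e-06) in the WT line, with a difference of the responses of -0.00 ± 0.10 (SE; adjusted p = 0.982). ADIPOR2 is a receptor for adiponectin. Under SET siRNA, ADIPOR2 had 33.8 and 36.9 FPKM in the KO line, against 41.3, 42.4 and 42.8 FPKM in the WT line. Under control siRNA, ADIPOR2 had 39.5 and 40.3 FPKM in the KO line, against 53.6, 56.5 and 59.9 FPKM in the WT line. It had -0.17 ± 0.062 (SE; adjusted p = 0.0566) in the KO line and fell in the WT line, -0.42 ± 0.050 (SE; adjusted p = 0.000127). WNK1, a kinase that controls chloride transport, had siRNA responses of -0.02 in the KO line and -0.01 in the WT line, neither of them called. Under SET siRNA, WNK1 had 39.7 and 40.9 FPKM in the KO line, against 50.9, 51.0 and 50.6 FPKM in the WT line. Under control siRNA, WNK1 had 40.4 and 41.3 FPKM in the KO line, against 50.0, 51.5 and 52.0 FPKM in the WT line. Its line differences were -0.33 with SET siRNA and -0.32 with control siRNA, at the small end of the block, with little spread between libraries. GPR162, an orphan receptor, was the member of this group whose lines overlapped under both siRNAs. Under SET siRNA, GPR162 had 10.5 and 7.95 FPKM in the KO line, against 8.95, 8.26 and 8.91 FPKM in the WT line. Under control siRNA, GPR162 had 11.3 and 8.59 FPKM in the KO line, against 11.3, 12.2 and 11.3 FPKM in the WT line. TSPAN9, another tetraspanin, had -0.81 with SET siRNA and -0.99 with control siRNA.

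Genes of tumour necrosis factor and lymphotoxin signalling outside the block were also mostly lower in the KO line. Of 12, 8 were called lower and 2 higher with SET siRNA, where 24.8% of all genes tested were called lower, and 9 lower and 1 higher with control siRNA, where 22.2% were called lower. The largest differences with control siRNA were those of BIRC3, a ubiquitin ligase of the receptor complexes, at -1.56 ± 0.082 (SE; adjusted p = 1.54e-06), TRADD, the adaptor that binds TNFRSF1A, at -0.96 ± 0.14 (SE; adjusted p = 0.000513), and MAP3K14, the kinase of the noncanonical pathway, at -0.90 ± 0.078 (SE; adjusted p = 3.09e-05). With SET siRNA they had -1.76, -0.96 and -0.37. BIRC3 lies near BIRC2, another gene of the list, on chromosome 11, and TRADD lies on chromosome 16. Whether the differences of partner genes go with their chromosome position was not tested.

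Another 8 members were grouped by hand under RNA processing, the ribosome or mitochondria, although no such role is given here for C12orf57. NOP2, which methylates 28S ribosomal RNA in the nucleolus, had the most negative line difference of all members with control siRNA. Under SET siRNA, NOP2 had 20.5 and 20.9 FPKM in the KO line, against 33.1, 33.7 and 36.3 FPKM in the WT line. Under control siRNA, NOP2 had 15.2 and 14.0 FPKM in the KO line, against 34.1, 33.6 and 35.03 FPKM in the WT line. It rose with SET siRNA in the KO line, 0.48 ± 0.060 (SE; adjusted p = 0.000358), and had 0.00 ± 0.049 (SE; adjusted p = 0.959) in the WT line; the WT response minus the KO response was -0.48 ± 0.077 (SE; adjusted p = 0.00452) and held under each single-library omission. EMG1 methylates a pseudouridine of the small ribosomal subunit RNA. Under SET siRNA, EMG1 had 28.1 and 30.8 FPKM in the KO line, against 43.1, 46.5 and 41.7 FPKM in the WT line. Under control siRNA, EMG1 had 25.6 and 28.0 FPKM in the KO line, against 46.3, 44.4 and 48.5 FPKM in the WT line. The lines did not overlap. PHB2 is a prohibitin of the inner mitochondrial membrane. Under SET siRNA, PHB2 had 101.1 and 105 FPKM in the KO line, against 154, 153 and 161 FPKM in the WT line. Under control siRNA, PHB2 had 105 and 94.2 FPKM in the KO line, against 179, 177 and 168 FPKM in the WT line. It fell in the WT line, -0.16 ± 0.049 (SE; adjusted p = 0.0204), a call lost in 4 of 6 omissions (highest adjusted p = 0.069). MRPL51 had -0.50 with SET siRNA and -0.58 with control siRNA and C12orf57 -0.68 with SET siRNA and -0.83 with control siRNA between the lines.

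DCP1B, a cofactor of the enzyme that removes messenger RNA caps, had the largest gap of all members under SET siRNA. Under SET siRNA, DCP1B had 7.39 and 8.13 FPKM in the KO line, against 24.8, 25.7 and 22.7 FPKM in the WT line. Under control siRNA, DCP1B had 10.6 and 10.4 FPKM in the KO line, against 24.7, 22.9 and 23.6 FPKM in the WT line. It fell in the KO line, -0.39 ± 0.071 (SE; adjusted p = 0.00254), and had 0.04 ± 0.058 (SE; adjusted p = 0.606) in the WT line, with a difference of the responses of 0.43 ± 0.091 (SE; adjusted p = 0.0137) that was lost without KO SET replicate 1 (adjusted p = 0.0657). SCARNA12 and SCARNA11 are small Cajal body RNAs that guide modification of spliceosomal RNAs and lie wholly within PHB2 and CHD4. Under SET siRNA, SCARNA12 had 40.0 and 49.0 FPKM in the KO line, against 47.6, 52.8 and 61.0 FPKM in the WT line. Under control siRNA, SCARNA12 had 20.2 and 16.02 FPKM in the KO line, against 34.4, 32.6 and 37.9 FPKM in the WT line. It rose with SET siRNA in both lines, 1.25 ± 0.14 (SE; adjusted p = 0.000229) in the KO line and 0.60 ± 0.12 (SE; adjusted p = 0.00203) in the WT line, while its host PHB2 did not rise in either. The SCARNA12 locus spans only 270 bases, and without strand its reads may not be told apart from those of PHB2, so its values are uncertain. SCARNA11 was listed at 0 in 5 of 10 libraries, with 0 and 58.1 FPKM in KO SET libraries, against 26.5, 0 and 24.8 FPKM in WT SET libraries, and 0 and 48.5 FPKM in KO control libraries, against 0, 26.9 and 0 FPKM in WT control libraries, so its fold is not read. The members without these RNAs had the same control siRNA median of -0.57 (n = 50).

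The partners of these genes outside the block showed no common direction with control siRNA. Of 12 genes for the small ribosomal subunit and nucleolar RNA modification, 7 were called higher and 0 lower with SET siRNA, where 23.6% of all genes tested were called higher, and 3 higher and 2 lower with control siRNA, near the 25.7% and 22.2% of all genes tested; NOP58 had 0.43 with SET siRNA and 0.38 with control siRNA, NOP56 0.57 with SET siRNA and 0.18 with control siRNA, and DKC1 0.53 with SET siRNA and 0.09 with control siRNA. Of 6 partners of PHB2, 2 were called higher and 1 lower under each siRNA, where 22.2% to 25.7% of all genes tested were called in 1 direction, with YME1L1 at 0.64 with SET siRNA and 0.75 with control siRNA and SPG7 at -0.61 with SET siRNA and -0.65 with control siRNA.

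**Figure D4:**
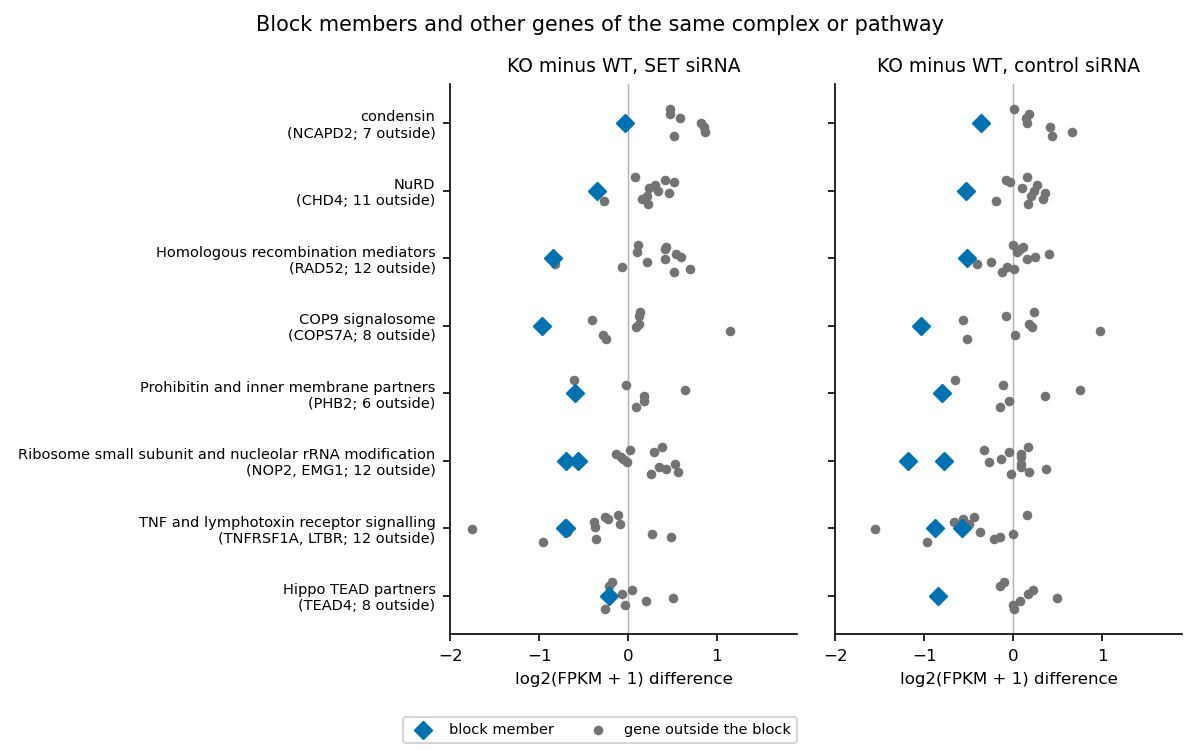
KO minus WT difference in log2(FPKM + 1) with SET siRNA (left) and control siRNA (right) for block members (diamonds) and for the genes outside the block that belong to the same complex or pathway (dots). NCAPD2, CHD4, RAD52, COPS7A, NOP2 and EMG1 lie left of all dots of their rows in both panels, RAD52 with SET siRNA only just. The dots of the TNF row lie mostly left of 0.

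A further 14 members were grouped by hand under protein folding, degradation, traffic or modification, 13 of them below 0 under each siRNA. The group is loose and also holds LPCAT3, PTMS and CCDC77, whose descriptions below name none of these roles. COPS7A is a subunit of the COP9 signalosome, which removes NEDD8 from cullin ligases. Under SET siRNA, COPS7A had 23.8 and 20.4 FPKM in the KO line, against 44.5, 43.4 and 44.7 FPKM in the WT line. Under control siRNA, COPS7A had 19.9 and 18.5 FPKM in the KO line, against 43.1, 37.7 and 40.3 FPKM in the WT line. The lines were far apart under both siRNAs and neither siRNA response was called. Of 8 signalosome genes elsewhere, 1 was called higher and 3 lower with SET siRNA, where 23.6% and 24.8% of all genes tested were, and 4 higher and 2 lower with control siRNA, where 25.7% and 22.2% were, the ends of the range being COPS3 on chromosome 17 at 1.15 with SET siRNA and 0.98 with control siRNA and COPS6 on chromosome 7 at -0.40 with SET siRNA and -0.57 with control siRNA. USP5 was described above as the neighbour of CDCA3. Under SET siRNA, USP5 had 44.8 and 40.6 FPKM in the KO line, against 62.6, 59.3 and 61.7 FPKM in the WT line. Under control siRNA, USP5 had 52.6 and 47.0 FPKM in the KO line, against 80.2, 77.6 and 78.5 FPKM in the WT line. It fell with SET siRNA in both lines, -0.22 ± 0.066 (SE; adjusted p = 0.0286) in the KO line and -0.36 ± 0.054 (SE; adjusted p = 0.000430) in the WT line, and the KO call was lost without KO control replicate 1 or KO SET replicate 2 (highest adjusted p = 0.189). LPCAT3 puts polyunsaturated chains into phospholipids. Under SET siRNA, LPCAT3 had 18.8 and 17.3 FPKM in the KO line, against 37.4, 36.1 and 36.1 FPKM in the WT line. Under control siRNA, LPCAT3 had 16.9 and 17.3 FPKM in the KO line, against 35.5, 36.7 and 33.7 FPKM in the WT line. Its differences of -0.98 with SET siRNA and -1.01 with control siRNA were among the largest of the block.

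FKBP4 is a cochaperone of HSP90 for steroid receptors. Under SET siRNA, FKBP4 had 98.5 and 97.2 FPKM in the KO line, against 93.7, 98.0 and 104 FPKM in the WT line. Under control siRNA, FKBP4 had 93.7 and 88.7 FPKM in the KO line, against 118, 115 and 118 FPKM in the WT line. The lines were apart with control siRNA and overlapped with SET siRNA. It had 0.10 ± 0.055 (SE; adjusted p = 0.183) in the KO line and fell in the WT line, -0.24 ± 0.045 (SE; adjusted p = 0.00157), with a difference of the responses of -0.34 ± 0.071 (SE; adjusted p = 0.0127) that was lost without KO SET replicate 1 (adjusted p = 0.0563). PTMS, parathymosin, a small acidic nuclear protein, was among the most abundant members. Under SET siRNA, PTMS had 153 and 171 FPKM in the KO line, against 172, 177 and 181 FPKM in the WT line. Under control siRNA, PTMS had 189 and 146 FPKM in the KO line, against 244, 236 and 221 FPKM in the WT line. Its line difference was -0.12 with SET siRNA and -0.49 with control siRNA, and PTMS fell in the WT line, -0.40 ± 0.089 (SE; adjusted p = 0.00408). Among the others, the F-box gene FBXL14 fell in the WT line, -0.57 ± 0.11 (SE; adjusted p = 0.00213), LEPREL2, a collagen prolyl hydroxylase, -0.54 ± 0.067 (SE; adjusted p = 0.000157), and the vesicle fusion gene VAMP1 fell in the KO line, -0.44 ± 0.10 (SE; adjusted p = 0.00993), a call lost without KO SET replicate 1 (adjusted p = 0.0525). The scaffold gene ERC1, the kinase gene DYRK4, SPSB2, which recruits a cullin ligase, ITFG2 and C12orf4 had line differences of -0.64 (ERC1) to -0.31 (ITFG2) with SET siRNA and -0.58 (ITFG2) to -0.23 (C12orf4) with control siRNA.

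CCDC77, a coiled-coil protein gene, did not share the lower level although it lies near the chromosome end beside KDM5A. Under SET siRNA, CCDC77 had 20.4 and 19.5 FPKM in the KO line, against 18.1, 16.7 and 17.7 FPKM in the WT line. Under control siRNA, CCDC77 had 18.1 and 21.2 FPKM in the KO line, against 19.3, 18.4 and 20.6 FPKM in the WT line. Its differences were 0.18 with SET siRNA and 0.01 with control siRNA, against -0.68 with SET siRNA and -0.53 with control siRNA for KDM5A. The loci of the pair overlap by 105 bases in the files, and their RefSeq starts, on opposite strands, are 27 bases apart; the 26 bases between them (chr12:389321-389346, GRCh38.p14, plus strand, all in lower case since nothing is marked) are printed because the pair differs over so short a distance.
KDM5A to CCDC77: aaatccctccgccccctgcaggaaac

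The other 9 members had no role group. They were below 0 under both siRNAs, at -0.67 to -0.12 with SET siRNA and -0.63 to -0.24 with control siRNA. They were LOC100288778, LOC100049716, LOC100128816, EFCAB4B, LOC100652804, C12orf53, RPL13P5, DSTNP2 and LRRC23. RPL13P5 and DSTNP2 carry pseudogene names and may share reads with near-identical copies, so their values are uncertain. LOC100049716 lies wholly within the locus of NINJ2, which had a mean of 1.67 FPKM. LOC100652804 had 30.8 and 34.2 FPKM in KO control libraries, against 44.5, 57.4 and 30.4 FPKM in WT control libraries, overlapping between the lines. C1RL, a protease related to complement C1r, was the 1 complement gene among the members, at -0.91 with SET siRNA and -0.58 with control siRNA; it fell with SET siRNA in the KO line, -0.47 ± 0.066 (SE; adjusted p = 0.000709). Of 8 other classical complement genes, 2 passed the filter on low values: SERPING1 had 0.17 with SET siRNA and 0.37 with control siRNA and C3, with a mean of 0.922 FPKM, -0.35 with SET siRNA and -0.81 with control siRNA.

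Over all members the response to SET siRNA had no single direction. In the KO line 18 members were called, beside 37.6% of all genes tested; 9 rose and 9 fell (17.3% each), against 19.8% higher and 17.9% lower of all genes tested, and the median was 0.03, against 0.02 over all genes tested. In the WT line 31 members were called, beside 54.8% of all genes tested; 12 rose (23.1%) and 19 fell (36.5%), against 30.8% higher and 24.0% lower of all genes tested, and the median was -0.09, against 0.04. Among called members whose groups did not overlap, the largest rises were those of SCARNA12, CACNA2D4, LTBR, NOP2 and LOC100288778 (0.37) in the KO line and of CACNA2D4, SCARNA12, LTBR, RAD52 and LOC100049716 (0.37) in the WT line. The largest falls were those of C1RL, VAMP1, DCP1B, CD9 and DSTNP2 (-0.33) in the KO line and of LOC100652804 (-0.82), CDCA3, C12orf53 (-0.58), FBXL14 and LEPREL2 in the WT line. The DSTNP2 call was lost in a fit of only the KO libraries, and its difference was -0.39 to -0.27 with 1 KO library left out. Without KO SET replicate 2 the KO line count was 12 in place of 18, and in a fit of only the 4 KO libraries it was 8.

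The responses of the lines differed by the test for 14 members, beside 19.1% of all genes tested: the WT response minus the KO response was positive for 4 and negative for 10, where 10.5% of all genes tested were called positive and 8.60% negative, and the median was -0.13, against 0.03. These tests use the same libraries as the line differences that chose the block. For each member the value equals the line difference with control siRNA minus that with SET siRNA. The tests are therefore not independent of the choice of the block, and nothing is read from the counts or the median. The count fell to 9 without WT control replicate 1, 7 without WT control replicate 2, 6, 7 and 9 without WT SET replicates 1, 2 and 3, 5 without KO SET replicate 1 and 6 without KO SET replicate 2. The calls of CDCA3, NCAPD2, NOP2 and TEAD4 held in each of those fits.

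**Figure D5:**
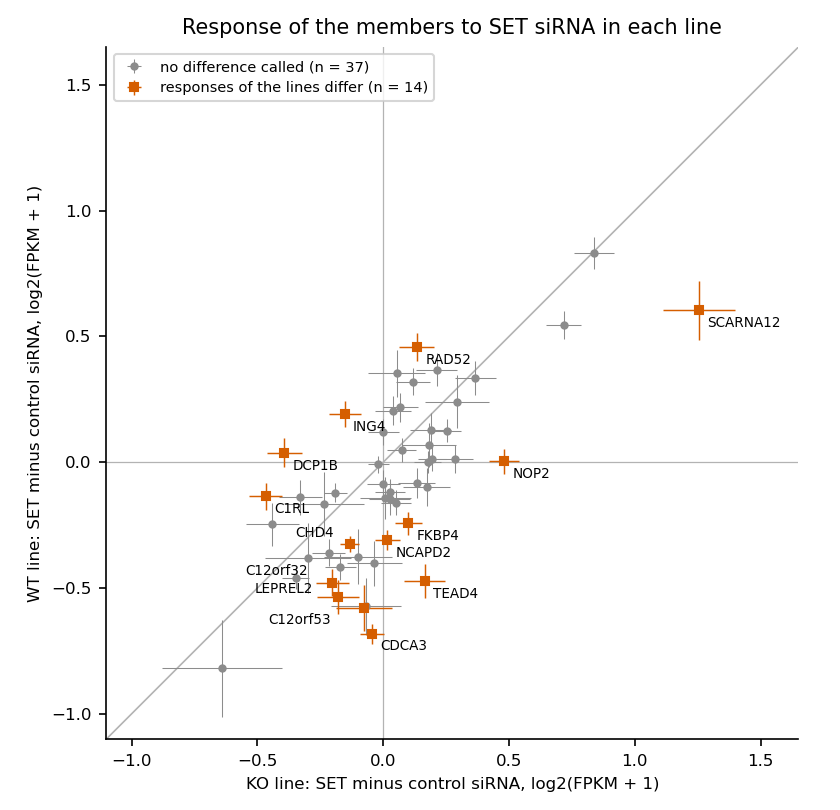
Response to SET siRNA, SET minus control in log2(FPKM + 1), in the KO line (horizontal) and the WT line (vertical) for 51 members, without SCARNA11; bars are standard errors and the diagonal marks equal responses. Squares are the 14 members whose responses differed by the test; CDCA3 and TEAD4 lie below the diagonal, NOP2 to its right, and RAD52 and ING4 above it.

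Across members, as a description over 52 genes that share libraries, the line differences under the 2 siRNAs had a Pearson r of 0.55 and a Spearman rho of 0.62. Without SCARNA11 and SCARNA12 these were 0.68 and 0.65 (n = 50). Over all 52, the mean line difference had r of -0.01 with mean FPKM, -0.14 with the length of the locus and -0.05 with position.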

How the data were processed

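Libraries were made from Trizol RNA with a TruSeq kit, per the labels' protocols, and the submitters' processing notes list Cufflinks 2.0.2, TopHat2 2.0.4 and bcl2fastq 1.8.4. The sources used here do not give the genome build or say whether counting used strand. The deposited values are FPKM per gene, normalized by the authors, with their confidence limits, whose half-width had a median over the members of 6.87% to 8.32% of the value by library; depth is unknown. Genes reaching FPKM 1 in 2 or more libraries (14813 of 25593 entries) were tested on log2(FPKM + 1) with limma 3.58.1 (R 4.3.3; trend, all 4 groups in 1 fit), without a replicate block, and p-values were adjusted by Benjamini-Hochberg over all genes tested. A call is an adjusted p below 0.05. The fit was tested on simulated data. Summaries used Python 3.11.15 with pandas 2.3.3. Loci were counted from 1. No pair of files held mostly identical values. Promoter sequences are RefSeq's on GRCh38.p14, matched by symbol, and no coordinates were converted.

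The members and gene lists were chosen with earlier results of these data known. Named genes were listed members, the 5 most negative and 5 most positive line differences, the 5 largest rises and falls among called members without overlap in each siRNA comparison, the entries nearest the limits, and up to 3 called genes per partner list and comparison; any member could be named in its role group. A few partner genes outside that rule were named after their values were seen. The alternatives changed the pseudocount, dropped or tightened the filter, and used 2 other scalings, fits of only the libraries compared, without trend or with a replicate block, and fits without each library in turn.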

Additional observations from a re-analysis of the deposited data

Results flagged for a closer look

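For 14 members the lines responded differently to SET siRNA by a test of the difference itself (limma, adjusted over all genes tested). Values are the log2 response in the WT line minus that in the KO line. Each equals the line difference with control siRNA minus that with SET siRNA. The block was chosen from line differences, so the balance of signs among the members is not read. Those below 0 were SCARNA12 -0.65, TEAD4 -0.64, CDCA3 -0.64, C12orf53 -0.50, NOP2 -0.48, LEPREL2 -0.36, FKBP4 -0.34, NCAPD2 -0.33, C12orf32 -0.28 and CHD4 -0.19. Those above 0 were RAD52 0.32, C1RL 0.33, ING4 0.34 and DCP1B 0.43. For 8 of the 14 the WT response was the more negative, for NOP2 and SCARNA12 the KO response was the more positive, and for the 4 positive ones the KO line was lower after SET siRNA by more than before it.

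Calls near the threshold were lost when 1 library was left out: C12orf32 in 10 of 10 such fits (adjusted p 0.0527 to 0.159), C12orf53, CHD4, LEPREL2 and RAD52 in 8 of 10 each (highest 0.151, 0.0975, 0.16 and 0.115), SCARNA12 in 7 of 10 (highest 0.135), C1RL in 5 of 10 (highest 0.0847), ING4 in 3 of 10 (highest 0.0757), and DCP1B and FKBP4 in 1 of 10 each. No group has 4 libraries, so single libraries were not tested as outliers.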

How the results depend on the processing

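With a pseudocount of 0.1 the median line difference of the members was -0.56 with SET siRNA and -0.59 with control siRNA. With median-of-ratios scaling the median response to SET siRNA in the WT line was -0.14 and the median difference of the responses -0.16; with quantile normalization that difference was -0.11. In a fit of only the libraries compared, 8 members were called in the KO line, 4 in each direction. Leaving out 1 library at a time gave 34 to 40 members called between the lines with SET siRNA and 45 to 47 with control siRNA, 12 to 20 in the KO line, 25 to 29 in the WT line and 5 to 19 for the difference of the responses. The medians then ranged over -0.58 to -0.49 between the lines with SET siRNA and -0.62 to -0.55 with control siRNA, 0.0067 to 0.063 in the KO line, -0.11 to -0.058 in the WT line, and -0.15 to -0.093 for the difference of the responses. With the replicate number as a block, 39 members were called between the lines with SET siRNA, 47 with control siRNA, 22 in the KO line, 30 in the WT line and 17 for the difference of the responses. The labels give no pairing by number. Deviations of same-numbered libraries correlated at -0.08, -0.03 and 0.07 in the WT line and at 0.0032 in the KO line. Between the lines they correlated at 0.04 and 0.07 with SET siRNA and 0.22 and 0.23 with control siRNA. Different numbers gave -0.23 to 0.0032 between the lines with control siRNA. The 2 KO libraries of a group deviate from their mean by equal and opposite amounts. Values for different numbers therefore follow from the same-numbered ones, and nothing is read from comparing them. Only 2 numbers are shared between the lines, so the libraries were not treated as paired. Leaving out 1 library kept the sign of each of these medians. Under the other alternatives no median difference between the lines reversed. A change of sign was not tested there for the medians of the siRNA responses or of their difference. The KO line median of 0.03 lies near 0, so its sign is not read. Depth being unknown, no limit from counting error can be given, and with 2 KO libraries per group small responses in that line are poorly resolved.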
